A study of Mus musculus with 16 samples.

Results

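The serum amyloid A genes (Saa1, Saa2, Saa3, Saa4), the orosomucoid genes (Orm1, Orm2, Orm3), lipocalin 2 (Lcn2), haptoglobin (Hp) and hemopexin (Hpx) encode secreted proteins of the acute phase response. Their rows were picked from the deposited count table by gene symbol, which gave 10 genes of the 53801 gene IDs listed. All 10 were among the 14351 genes that passed the filter on low counts. RNA from 16 mouse livers had been sequenced, 4 in each of 4 groups: controls and mice with a liver-specific knockout of Degs1, each on a high-fat diet or on normal chow. The Degs1 product is the desaturase that turns dihydroceramide into ceramide. The sources used here do not give the strain, sex or age of the mice, the length of feeding, the genotype of the controls or the way the gene was deleted in the liver. Each liver carries its own animal number, so p-values measure the spread between animals. The numbers run in separate ranges for the 4 groups, so any difference tied to cohort or handling cannot be told apart from genotype or diet.

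Acute phase proteins are made mainly by hepatocytes and are released into plasma during infection, injury or sterile inflammation. In the classical scheme, interleukin 1 and tumour necrosis factor act through NF-kB, interleukin 6 acts through STAT3, and C/EBP factors act together with them at the promoters of these genes. Saa1 and Saa2 encode the major inducible serum amyloids, apolipoproteins of high-density lipoprotein, whereas Saa4 encodes a constitutive form and Saa3 is also made by macrophages and adipocytes. Orosomucoid, or alpha-1-acid glycoprotein, binds lipids and drugs. Lipocalin 2 sequesters bacterial siderophores, haptoglobin binds free haemoglobin, and hemopexin binds free haem. Orosomucoid-like ORMDL proteins, which restrain sphingolipid synthesis, share the name only and are not members here.

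The 4 Saa genes lie together on chromosome 7 of the GRCm38 mouse genome, Saa3 at chr7:46711998-46715700, Saa4 at chr7:46727998-46732603, Saa1 at chr7:46740497-46742980 and Saa2 at chr7:46751790-46754313. Saa1, Saa3 and Saa4 are on the minus strand, and Saa2 is on the plus strand. The Orm genes lie in a row on the plus strand of chromosome 4, Orm1 at chr4:63344560-63348163, Orm3 at chr4:63356162-63359511 and Orm2 at chr4:63362449-63365878. Lcn2 is at chr2:32384633-32388252, Hp at chr8:109575128-109579172 and Hpx at chr7:105591613-105600137, all on the minus strand. All 10 are annotated as protein coding.

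The paralogs are alike in sequence, which bears on how reads could be assigned to them. The principal transcripts of Saa1 and Saa2 were identical at 93.9% of aligned positions, those of Orm1 and Orm2 at 91.0%, of Orm2 and Orm3 at 88.0% and of Orm1 and Orm3 at 86.1%. Of the 50-base windows of the Saa1 transcript, 13.2% occurred unchanged in Saa2, and 20.4% of those of Orm1 occurred in Orm2. Saa1 and Saa3 were identical at 60.3%. Counts of Saa1 and Saa2, and of the 3 Orm genes, are therefore uncertain in how they split within each family, and sums over the families were tested as well.

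The likeness of the families extends upstream of the genes. RefSeq promoter windows on GRCm38.p6, which span 250 bases before to 50 bases after a start site, were matched for 8 of the 10 members, all but Orm1 and Hp. The 250 bases before the start were 94.8% identical between Saa1 and Saa2 and 85.5% between Orm2 and Orm3, against 48.2% between Saa1 and Saa3. The bases from 250 to 51 before the start site are printed for these 2 pairs, because the pairs hold 4 of the 6 genes that differed between diets in the knockouts. Capitals mark matches to the C/EBP-type motifs TTGCNNAA and TTNNGNAA on either strand, where N is any base.
Saa1, chr7:46743031-46743230 (minus strand): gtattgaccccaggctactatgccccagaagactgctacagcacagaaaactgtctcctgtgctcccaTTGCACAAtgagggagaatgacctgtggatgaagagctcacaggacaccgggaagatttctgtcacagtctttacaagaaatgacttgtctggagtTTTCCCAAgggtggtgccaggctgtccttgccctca
Saa2, chr7:46751583-46751782 (plus strand): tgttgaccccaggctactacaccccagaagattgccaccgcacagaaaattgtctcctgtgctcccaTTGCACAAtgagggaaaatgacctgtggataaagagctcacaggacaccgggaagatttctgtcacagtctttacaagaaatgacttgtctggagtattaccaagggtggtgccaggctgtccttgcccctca
Orm2, chr4:63362199-63362398 (plus strand): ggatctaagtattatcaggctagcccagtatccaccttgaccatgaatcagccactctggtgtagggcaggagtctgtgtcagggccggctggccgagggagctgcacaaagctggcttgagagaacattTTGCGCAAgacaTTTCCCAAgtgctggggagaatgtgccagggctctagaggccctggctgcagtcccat
Orm3, chr4:63355908-63356107 (plus strand): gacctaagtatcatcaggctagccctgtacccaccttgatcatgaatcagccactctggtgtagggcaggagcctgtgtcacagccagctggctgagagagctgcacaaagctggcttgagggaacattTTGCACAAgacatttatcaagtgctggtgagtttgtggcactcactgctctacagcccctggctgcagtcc

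In both Saa windows the match TTGCACAA stood at nearly the same place, -182 from the start site in Saa1 and -183 in Saa2. Saa1 held a further match, TTTCCCAA, at -86, where Saa2 had none. Orm2 and Orm3 likewise shared a match near -120, written TTGCGCAA in Orm2 and TTGCACAA in Orm3, and Orm2 held a further one at -108.

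For the other 4 members with a window, 48 bases around the match to TTGCNNAA (for Saa4 the one nearer the start) are given with the same marking.
Saa3, chr7:46715748-46715795 (minus strand): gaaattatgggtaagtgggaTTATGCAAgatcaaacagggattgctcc
Saa4, chr7:46732628-46732675 (minus strand): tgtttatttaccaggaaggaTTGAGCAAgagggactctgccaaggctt
Lcn2, chr2:32387928-32387975 (minus strand): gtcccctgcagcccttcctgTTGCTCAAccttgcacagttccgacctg
Hpx, chr7:105600289-105600336 (minus strand): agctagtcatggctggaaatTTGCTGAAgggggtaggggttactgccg

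All 8 windows held TTGCNNAA, a motif present in 10.8% of the 32851 windows of the table, and all 8 held TTNNGNAA, present in 40.7%. Every TTGCNNAA site is also a TTNNGNAA site read on the other strand, so these are not separate counts. The windows of Saa1 and Saa2, and of Orm2 and Orm3, are alike in sequence, so the 8 windows are not 8 separate observations. No window of the 8 held the STAT-type motif TTCNNNGAA (8.3% of all windows) or the kB-type motifs GGGNNTTTC (4.36%) and GGANTTTCC (1.25%). A match describes letters only and was not tied to binding of a factor. Saa4 and Hpx, which were not called in the main fit of any comparison below, held the C/EBP-type motif too.

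Total counts ran from 11938596 to 23250885 per library, so that 3 counts correspond to between 0.129 and 0.251 CPM, the count scaled to a common library size. Levels below are CPM on library sizes scaled by the trimmed mean of M values (TMM), and fold changes use the same scaling. The TMM factors ran from 0.859 to 0.963 in chow knockouts and from 1.11 to 1.21 in high-fat knockouts. This scaling thus lowers every gene in high-fat knockouts relative to chow knockouts, which matters most for small fold changes. On chow, Degs1 was at 84.7 ± 3.13 CPM in controls and 37.99 ± 1.65 CPM in knockouts (SD, n = 4 each). On the high-fat diet it was at 73.4 ± 18.9 CPM in controls and 31.3 ± 7.01 CPM in knockouts (SD, n = 4 each), and every knockout liver was below every control liver of its diet. Transcripts annotated as sense-intronic or of unconfirmed status took 0.0263% to 0.0411% of counts in controls and 0.0463% to 0.0878% in knockouts on chow. On the high-fat diet they took 0.0218% to 0.164% in controls and 0.162% to 0.191% in knockouts. This share therefore moved with the groups, and high-fat control 3 had the lowest of all 16 libraries. The members made up between 0.440% and 1.21% of all counts of a library.

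Compared per length, hemopexin and haptoglobin RNA dominated the 10 genes. In chow controls Hpx was at 2993 ± 1133 and Hp at 2119.5 ± 837 CPM per kilobase of exon (SD, n = 4), a gap smaller than the SD of Hpx. Orm1 followed at 716 ± 210.0 and Saa4 at 120.3 ± 41.9, and these 4 genes kept the same order in all 4 groups. In high-fat knockouts the same measure was 2534 ± 343 for Hpx, 2023 ± 267 for Hp, 383 ± 50.9 for Orm1 and 112 ± 32.0 for Saa4. The other 6 genes lay below Saa4, and their order there depended on the length used. With the union of annotated exons, which includes retained introns, Saa1 was 6th and Lcn2 8th in high-fat knockouts, whereas with the principal transcript they were 5th and 7th.

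**Figure D1:**
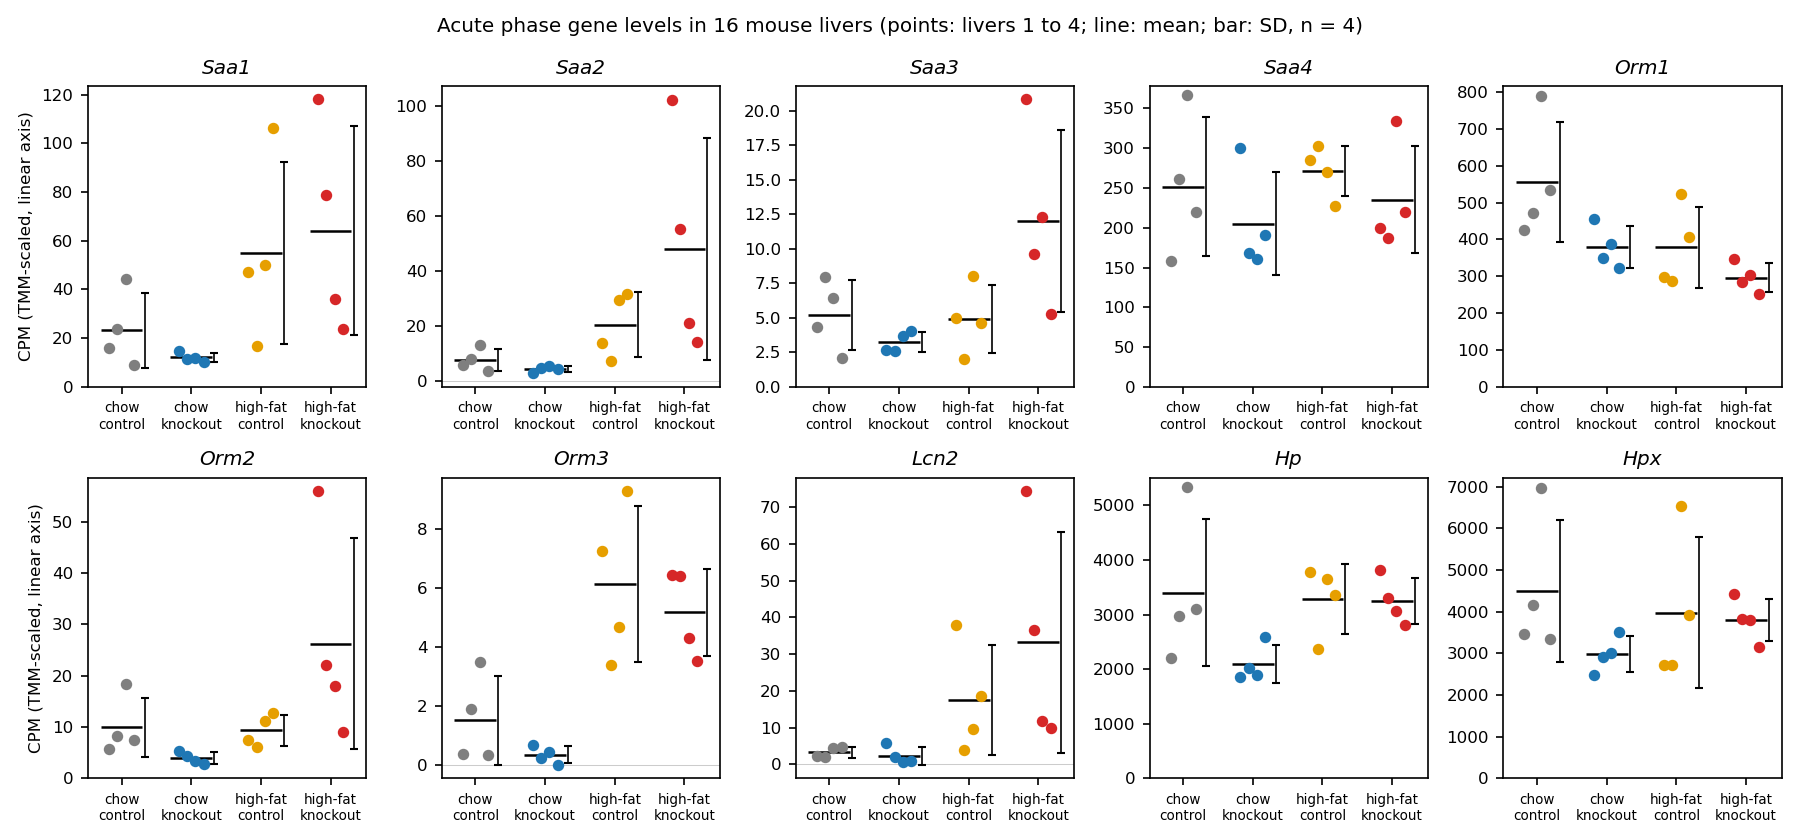
CPM of each member (linear axes, TMM-scaled) in the 16 livers, with points for livers 1 to 4 of a group from left to right, a line for the mean and a bar for the SD (n = 4). Saa1, Saa2, Saa3, Orm2, Orm3, Lcn2 and Hp are higher in every high-fat knockout liver than in every chow knockout liver, as are 12.1% of genes tested. The high-fat groups of both genotypes overlap for all 10 genes, and 13.2% of genes tested show no overlap there.

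The clearest difference lay between diets within the knockouts. Saa1, Saa2, Saa3, Orm2, Orm3 and Lcn2 were higher in high-fat knockouts than in chow knockouts, by 3.70-fold to 16.1-fold, at an adjusted p below 0.05 in edgeR's quasi-likelihood test. These are 6 of 10 members, none was lower, and of all genes tested in this comparison 5.21% were called higher and 10.6% in either direction. The constitutive Saa4, the abundant Orm1, Hp and Hpx did not pass the test. The median log2 fold change of the 10 members was 2.15, beside 0.02 over all genes tested. In whole tissue, a change in the number of cells of a type and a change in RNA per cell cannot be told apart.

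Saa1, a major inducible serum amyloid, was at 14.5, 11.6, 11.9 and 10.1 CPM in chow knockouts 1 to 4 and at 118, 78.8, 36.0 and 23.8 CPM in high-fat knockouts 1 to 4. The lowest high-fat value was above the highest chow value, and the high-fat livers differed 4.96-fold among themselves. The log2 fold change was 2.42 with an SE of 0.55 (adjusted p = 0.0131, edgeR). Controls were at 15.98, 23.8, 44.3 and 8.84 CPM on chow and at 47.0, 16.7, 49.8 and 106 CPM on the high-fat diet. These control groups overlapped, and the log2 fold change of 1.24 (SE 0.53) did not pass the test (adjusted p = 0.234, edgeR).

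Saa2, its close neighbour in place and sequence, was at 2.83, 4.74, 5.26 and 4.30 CPM in chow knockouts and at 102, 55.1, 20.9 and 14.1 CPM in high-fat knockouts. The groups did not overlap, and high-fat knockout 1 was the highest and high-fat knockout 4 the lowest of its group, as for Saa1. Saa2 rose by 3.47 on the log2 scale (SE 0.59, adjusted p = 0.00359, edgeR), an 11.1-fold difference. In controls it was at 5.95, 8.07, 12.99 and 3.47 CPM on chow and at 13.6, 7.33, 29.3 and 31.7 CPM on the high-fat diet. The log2 fold change between these groups was 1.43 (SE 0.55, adjusted p = 0.187, edgeR), and high-fat control 2 lay within the range of the chow controls.

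With the counts of Saa1 and Saa2 added, which removes the question of how reads were split between them, the log2 fold change between diets in knockouts was 2.78 (SE 0.56, adjusted p = 0.00734, edgeR). On chow, Saa2 made up 25.8% ± 2.42 of the summed counts in controls and 26.4% ± 6.80 in knockouts (SD, n = 4 each). On the high-fat diet it made up 28.2% ± 6.92 in controls and 40.4% ± 4.49 in knockouts (SD, n = 4 each). The share was 36.8% to 46.4% in the high-fat knockouts, and of the other 12 livers only high-fat control 3, at 37.0%, reached that range. This share was examined after the values had been seen, and no test was made of it.

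Saa3, which macrophages and adipocytes also express, was at lower levels than Saa1. It was at 2.63, 2.61, 3.68 and 4.03 CPM in chow knockouts and at 20.8, 9.62, 12.3 and 5.26 CPM in high-fat knockouts. It rose by 1.89 on the log2 scale (SE 0.44, adjusted p = 0.0142, edgeR). This call depended on single livers: without high-fat knockout 1 the log2 fold change was 1.49 (adjusted p = 0.0551) and without chow knockout 2 it was 1.80 (adjusted p = 0.0542, both edgeR). Controls gave 4.36, 7.92, 6.42 and 2.12 CPM on chow and 5.02, 2.04, 8.05 and 4.599 CPM on the high-fat diet. Between them the log2 fold change was -0.07 (SE 0.43, adjusted p = 0.962, edgeR), and the ranges were nearly the same.

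Saa4, the constitutive serum amyloid, ranged from 160.3 to 300.04 CPM in chow knockouts and from 188 to 334 CPM in high-fat knockouts, and from 159 to 367 and from 228 to 303 CPM in controls on chow and on the high-fat diet. Its 4 groups overlapped throughout. Its log2 fold change between diets in knockouts was 0.20, with a 95% interval of -0.32 to 0.72 (adjusted p = 0.627, edgeR). That interval lies below the whole interval for Saa1, 1.26 to 3.58, although both genes sit in the same cluster.

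Orm2 was at 5.36, 4.44, 3.44 and 2.73 CPM in chow knockouts and at 56.0, 22.01, 17.9 and 9.06 CPM in high-fat knockouts. The order of the high-fat livers was that of Saa1 and Saa2. Orm2 rose by 2.73 on the log2 scale (SE 0.48, adjusted p = 0.0043, edgeR), a 6.62-fold difference. In controls it was at 5.74, 8.22, 18.5 and 7.44 CPM on chow and at 7.46, 6.05, 11.2 and 12.6 CPM on the high-fat diet, with a log2 fold change of -0.10 (SE 0.45, adjusted p = 0.946, edgeR).

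Orm3 had the fewest reads of the 10 members and the largest fold change in the fit with groups alone, an order that some other fits changed. In chow knockouts it was at 0.683, 0.237, 0.423 and 0 CPM, from 7, 4, 7 and 0 counts, and a count of 0 in that library allows up to 0.189 CPM before scaling. In high-fat knockouts it was at 6.45, 6.43, 4.32 and 3.53 CPM. The fitted log2 fold change was 4.01 (SE 0.73, adjusted p = 0.00482, edgeR), with a 95% interval of 2.48 to 5.55. Controls were at 0.346, 1.90, 3.49 and 0.316 CPM on chow and at 7.26, 3.38, 4.67 and 9.30 CPM on the high-fat diet. Only chow control 3 reached the lowest high-fat control, and the log2 fold change of 2.02 (SE 0.59) missed the threshold (adjusted p = 0.0867, edgeR). Without chow control 3 it was 2.94 and passed (adjusted p = 0.0275, edgeR).

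Orm1 supplied most orosomucoid RNA and had negative log2 fold changes in all 4 comparisons, none past the test. When the fit also held a term for the sense-intronic and unconfirmed share, the sign turned in both comparisons with high-fat knockouts, to 0.038 against high-fat controls and 0.0080 against chow knockouts. It ranged from 425 to 789.7 CPM in controls and from 324 to 456 CPM in knockouts on chow, and from 288 to 523 CPM in controls and 252 to 346 CPM in knockouts on the high-fat diet. Without TMM scaling the mean of Orm1 was nearly the same in both knockout groups, 346.7 CPM on chow and 345.8 CPM on the high-fat diet. Between diets in knockouts the log2 fold change of Orm1 with TMM scaling was -0.35, with a 95% interval of -0.80 to 0.09 (adjusted p = 0.280, edgeR), and in controls it was -0.55 (SE 0.21, adjusted p = 0.185, edgeR). Without high-fat control 3 the latter was -0.75 and passed (adjusted p = 0.0353, edgeR). On chow, Orm1 made up 98.1% ± 0.62 of Orm counts in controls and 98.9% ± 0.242 in knockouts (SD, n = 4 each). On the high-fat diet it made up 96.0% ± 1.09 in controls and 91.0% ± 4.55 in knockouts (SD, n = 4 each). The sum over the 3 Orm genes therefore followed Orm1, with a log2 fold change between diets in knockouts of -0.23 (SE 0.22, adjusted p = 0.522, edgeR).

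Lcn2 had the largest pooled within-group SD of log2(CPM + 1) of the 10 members. In chow controls, though, it spanned 2.51-fold, less than Saa1, Saa2, Saa3, Orm2 and Orm3. It was at 5.95, 1.95, 0.785 and 0.819 CPM in chow knockouts and at 74.3, 36.6, 11.9 and 9.92 CPM in high-fat knockouts. The groups did not overlap, and Lcn2 rose by 3.90 on the log2 scale (SE 0.79, adjusted p = 0.00749, edgeR). Its controls were at 2.21, 1.90, 4.36 and 4.78 CPM on chow and at 37.98, 3.95, 9.54 and 18.6 CPM on the high-fat diet. High-fat control 2 lay within the chow range, and the log2 fold change of 2.37 (SE 0.73) missed the threshold (adjusted p = 0.0994, edgeR). Fold changes of several members leaned on high-fat knockout 1. Without it the log2 fold changes in knockouts were 3.13 for Lcn2, 2.06 for Orm2, 2.81 for Saa2 and 1.96 for Saa1, and those 4 still passed. Without chow knockout 1 that of Lcn2 was 4.79, since this liver held the highest chow knockout value.

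Hp was at 1861, 2029, 1886 and 2595 CPM in chow knockouts and at 3813, 3308, 3064 and 2809 CPM in high-fat knockouts. The groups did not overlap, yet the log2 fold change of 0.63 (SE 0.23) missed the threshold in edgeR (adjusted p = 0.0755). DESeq2 gave 0.64 with an adjusted p of 0.0389, and edgeR without chow control 3 gave 0.64 with an adjusted p of 0.0333. In total 7 members, Hp and the 6 called, were higher in every high-fat knockout than in every chow knockout, a separation seen for 12.1% of genes tested. Hpx was at 2479.9, 2912, 3014 and 3518 CPM against 4414, 3831, 3794.9 and 3155 CPM, with a log2 fold change of 0.35 (SE 0.27, adjusted p = 0.410, edgeR).

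**Figure D2:**
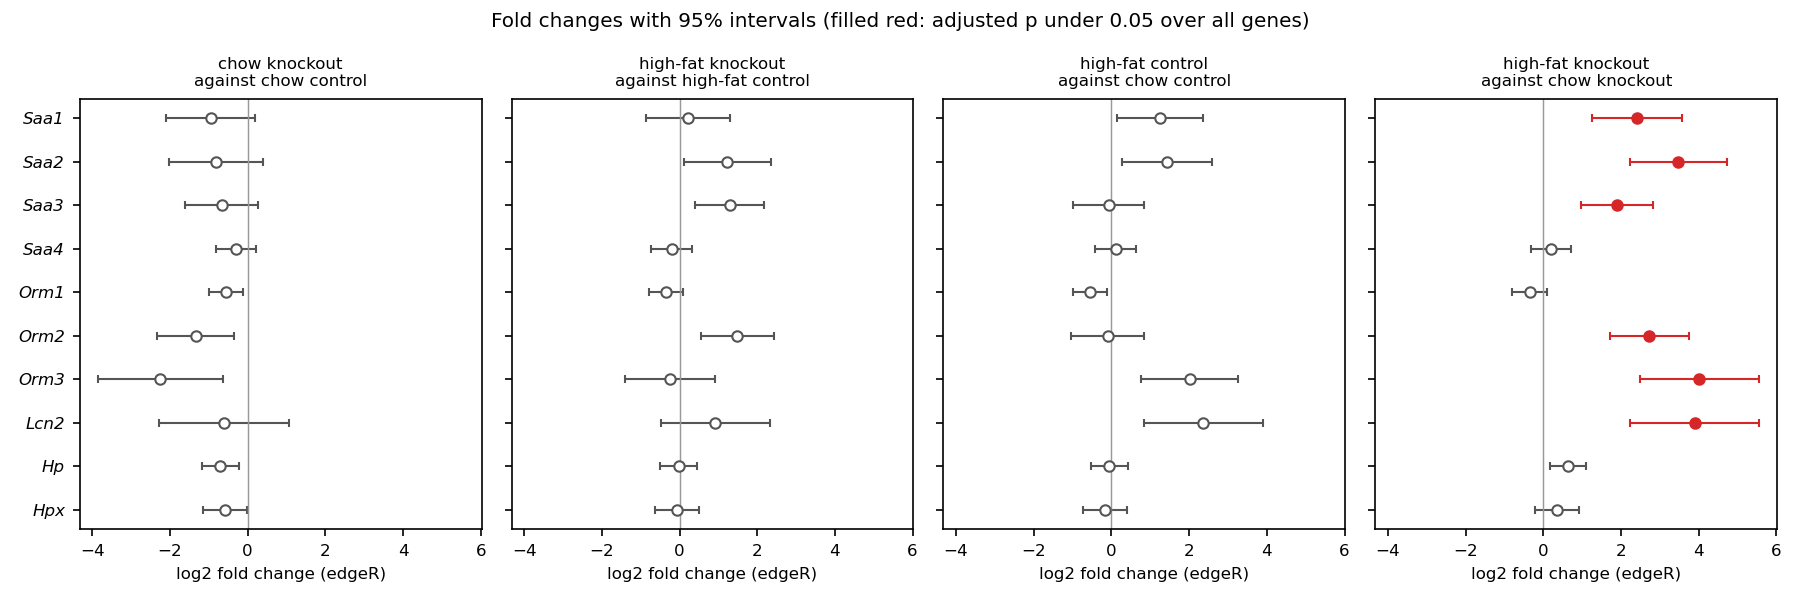
Log2 fold changes of the 10 members with 95% intervals in the 4 comparisons between groups (edgeR, 16 livers in 1 fit). Filled red points, all in the comparison of high-fat knockouts with chow knockouts, have an adjusted p under 0.05 over all genes tested, and all 10 points lie below 0 for chow knockouts against chow controls.

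In controls, no member passed the test between diets. Saa1, Saa2, Orm3 and Lcn2 had log2 fold changes of 1.24 to 2.37 and an unadjusted p below 0.05, and Orm1 had one of -0.55. After adjustment edgeR called 0 of 10 members, in a comparison where 1.83% of genes tested were called, and adjusted p-values ran from 0.0867 to 0.962. Unadjusted, 4 members were higher and 1 lower, beside 9.98% and 7.09% of all genes. DESeq2 and limma-voom each called 1 member, Orm3, with log2 fold changes of 2.04 (adjusted p = 0.0213) and 2.65 (adjusted p = 0.0456). DESeq2 also called more genes in all than edgeR here, with the count given in the last section. The log2 fold changes were 0.11 for Saa4, -0.05 for Hp and -0.17 for Hpx. Both diet comparisons used different livers.

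Between genotypes on chow, every member had a negative log2 fold change, with a median of -0.68 beside -0.01 over all genes, of which 49% were above 0. None of the 10 passed the test. The log2 fold changes were -1.34 for Orm2 (SE 0.47, adjusted p = 0.442), -0.70 for Hp (SE 0.23, adjusted p = 0.407) and -2.24 for Orm3 (SE 0.77, adjusted p = 0.429, all edgeR). They were -0.95 for Saa1, -0.81 for Saa2, -0.66 for Saa3, -0.30 for Saa4, -0.55 for Orm1, -0.60 for Lcn2 and -0.59 for Hpx. Of all genes tested, 0.0139% were called in either direction. Unadjusted p-values were below 0.05 for 5 members, Orm1, Orm2, Orm3, Hp and Hpx, all lower, beside 4.42% of genes lower at that level. DESeq2 and limma-voom called 0 members here. Orm2 was the only member without overlap, at 2.73 to 5.36 CPM in chow knockouts against 5.74 to 18.5 CPM in chow controls, and 2.9% of genes were lower without overlap. Chow control 3 was the highest of its group for Saa1, Saa2, Saa4, Orm1, Orm2, Orm3, Hp and Hpx. Without it the log2 fold change of Orm2 was -0.84 and that of Orm3 was -1.33.

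Between genotypes on the high-fat diet the members split evenly, 5 with a positive and 5 with a negative log2 fold change, around a median of 0.10, and 52.2% of all genes were positive. Orm2 (1.49, SE 0.45, adjusted p = 0.109), Saa3 (1.29, SE 0.43, adjusted p = 0.119) and Saa2 (1.23, SE 0.53, adjusted p = 0.193) had an unadjusted p below 0.05, all higher in knockouts, beside 8.54% of genes higher at that level. edgeR called 0 of 10, where 0.111% of genes tested were called. DESeq2 called 1 member, Orm2, at 1.49 with an adjusted p of 0.0277, and limma-voom called 0 members. Both also called more genes in all than edgeR in this comparison, with the counts given in the last section. The groups overlapped for all 10 members. Over all genes tested 13.2% showed no overlap, and 10 genes are too few to tell the members apart from that share. High-fat knockout 4 lay within the range of the high-fat controls for Saa1, Saa2, Orm2 and Lcn2. For Saa1 the log2 fold change was 0.22, with a 95% interval of -0.86 to 1.31, and for Lcn2 it was 0.92, with one of -0.47 to 2.32. The negative values were -0.35 for Orm1, -0.25 for Orm3, -0.20 for Saa4, -0.07 for Hpx and -0.02 for Hp, and those of Orm1, Orm3, Hpx and Hp turned positive under at least 1 alternative.

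The interaction, the difference between the diet effects in knockouts and in controls, was positive for all 10 members, with a median log2 value of 1.35 beside -0.01 over all genes, of which 49.4% were positive. It was largest for Orm2 at 2.83 (SE 0.65, adjusted p = 0.211), followed by Saa2 at 2.04 (adjusted p = 0.343), Orm3 at 1.99 (adjusted p = 0.443) and Saa3 at 1.96 (adjusted p = 0.279, all edgeR). It was 1.53 for Lcn2, 1.18 for Saa1, 0.68 for Hp, 0.52 for Hpx, 0.20 for Orm1 and 0.09 for Saa4. A positive value need not mean more RNA in high-fat knockouts than in high-fat controls, where 5 members had a negative log2 fold change. For Orm3, Hp and Hpx the log2 fold changes between genotypes were -2.24, -0.70 and -0.59 on chow. On the high-fat diet they were -0.25, -0.02 and -0.07. edgeR called 0 members and 0 genes in all (0% of those tested), with 5 members and 1615 genes (11.3% of those tested) at an unadjusted p below 0.05. For these 5 members, Saa2, Saa3, Orm2, Orm3 and Hp, the value was positive, beside 5.37% of genes positive at that level. Orm2 had the 25th smallest p of the 14351. DESeq2 called 71 genes and among them Orm2, at 2.80 with an adjusted p of 0.00746. Without a filter on low counts, edgeR gave Orm2 2.84 with an SE of 0.31 and called 259 genes and 6 members, Saa1, Saa2, Saa3, Orm2, Orm3 and Lcn2, all positive. That fit also called 4 members between genotypes on chow (Saa1, Saa2, Orm2 and Orm3, lower in knockouts), 4 between genotypes on the high-fat diet (Saa2, Saa3, Orm2 and Lcn2, higher in knockouts) and 4 between diets in controls (Saa1, Saa2, Orm3 and Lcn2, higher on the high-fat diet). Over all genes it called 308, 964 and 992 in these comparisons, in that order, beside 2, 16 and 262 in the main fit. Its added calls were thus not limited to the members, and their cause was not tested. The SE of Orm2 was smaller in this fit than in the main fit of the same livers. The fit without a filter is therefore not taken as evidence of an interaction. A call in knockouts and none in controls is thus not shown to be a difference between genotypes by the main test. Several members are correlated within livers, so their shared sign is not 10 separate observations.

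Among the 10 members, the 6 called were those that differed most among livers of the same group. The within-group SD of log2(CPM + 1), pooled over the groups, was 1.05 for Lcn2, 0.88 for Saa1, 0.87 for Saa2, 0.68 for Orm2, 0.61 for Saa3 and 0.57 for Orm3, beside a median of 0.27 over all genes tested. These values lay between the 96.4th and the 99.7th percentile of all genes. Orm1, at 0.32, Hp, at 0.34, Saa4, at 0.38, and Hpx, at 0.41, lay between the 64.7th and the 86.5th percentile. Among genes of like mean level the gap was smaller, with the 6 between the 92.5th and the 99.6th percentile and the other 4 between the 71.0th and the 90th. Ranked over all 16 livers, which includes the differences between groups, high-fat knockout 1 was among the 4 highest of the 16 livers for 8 of 10 members, high-fat knockout 2 and high-fat control 3 for 6 each, and chow control 3 for 5. Chow knockout 2 was among the 4 lowest for 9 members.

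Over the 16 livers, Pearson's r of log2(CPM + 1) was 0.94 between Saa1 and Saa2, 0.91 between Saa1 and Orm3, 0.88 between Saa2 and Orm2 and 0.84 between Saa1 and Lcn2. With group means removed, r was 0.91, 0.85, 0.82 and 0.63 for the same pairs. Orm1 and Saa1 gave an r of -0.05 over all livers and of 0.60 over deviations from group means, so livers with more Saa1 than others of their group tended to hold more Orm1 too. Saa4 stood apart from the rest of its family, with an r of 0.23 with Saa1 and 0.07 with Saa2. These values describe points that share libraries and their depth, and paralog reads can add to them.

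**Figure D3:**
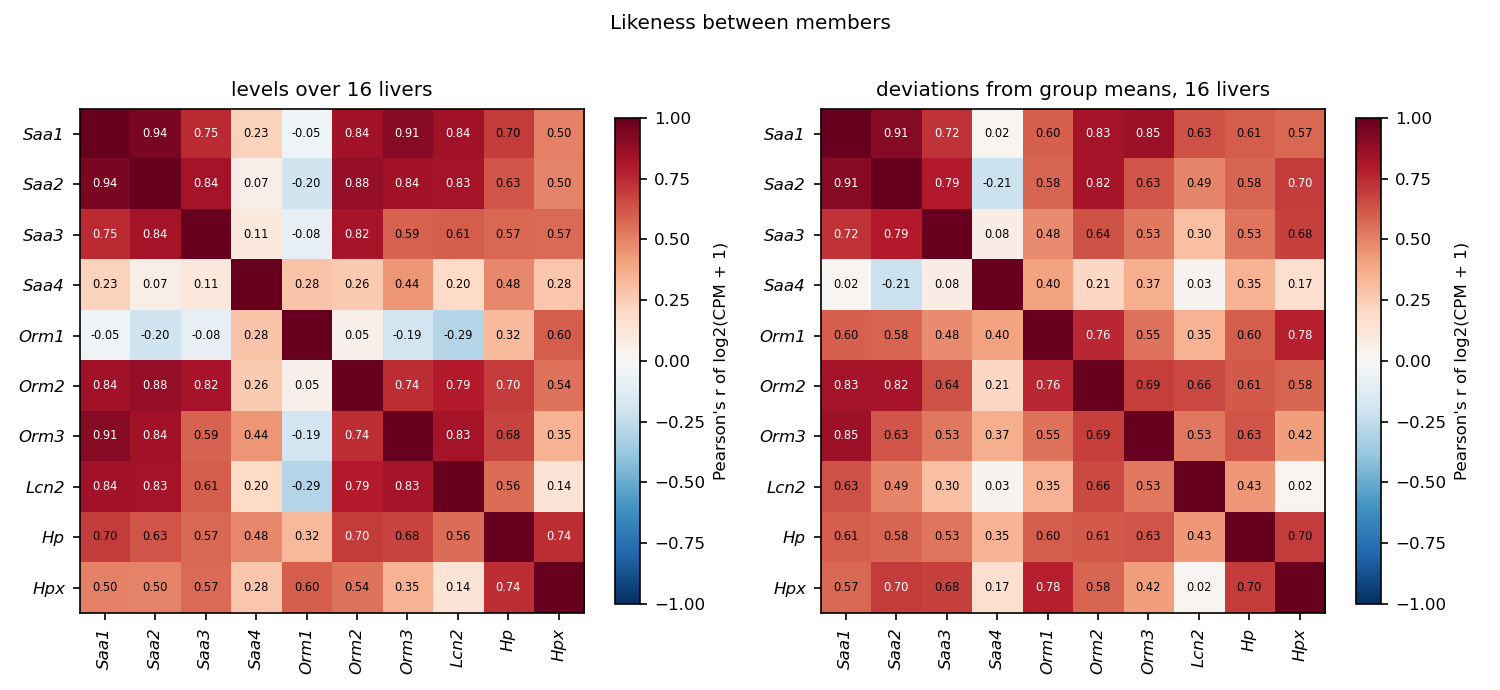
Pearson's r of log2(CPM + 1) between members over 16 livers, from levels (left) and from deviations from group means (right), with red for positive and blue for negative values. Orm1 is near or below 0 against Saa1, Saa2 and Saa3 on the left and between 0.48 and 0.60 on the right, while Saa4 is weakly tied to the other Saa genes in both.

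The genes outside the set with the most similar pattern over the 16 livers differed between the inducible and the abundant members. The closest to Saa2 and to Saa1 was BC029722 (r of 0.92 and 0.85), and the closest to Lcn2 and to Orm3 was Rasgrp2, a guanine nucleotide exchange factor for Rap proteins (0.88 and 0.89). Orm2 was most like Plvap, a protein of fenestrated endothelium, at 0.87. Saa3 was closest to Cnn2, a calponin, at 0.82. Saa4 was closest to the cytochrome Cyp4f15 at 0.91, Orm1 to the lysosomal membrane protein gene Lamp1 at 0.91, Hp to Tmem186 at 0.84 and Hpx to Crip1 at 0.90. With group means removed, r was 0.80 and 0.67 for BC029722 with Saa2 and Saa1. It was 0.64 and 0.55 for Rasgrp2 with Lcn2 and Orm3, 0.60 for Plvap and 0.84 for Cnn2. For Cyp4f15, Lamp1, Tmem186 and Crip1 it was 0.90, 0.86, 0.70 and 0.90. Each gene named is the highest of many r values, and no test was made.

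Among other acute phase genes, more were called lower than higher. Of 20 further positive acute phase genes tested between diets in knockouts, 1 was higher and 3 were lower, where 5.21% of all genes tested were called higher and 5.35% lower, with a median log2 fold change of -0.24. The genes of the 3 fibrinogen chains fell, with log2 fold changes of -0.80 for Fga, -0.90 for Fgb and -0.87 for Fgg (adjusted p = 0.0039, 0.00439 and 0.00767, edgeR). Cd14, the lipopolysaccharide co-receptor, rose by 1.14 (adjusted p = 0.0298, edgeR). Of 12 negative acute phase genes, whose output normally drops in the response, 4 fell and none rose, beside the same 5.35% lower over all genes, with a median of -0.39. These were Alb at -1.001, Apom at -1.18, Fetub at -0.66 and Ahsg at -0.52 on the log2 scale (adjusted p = 0.00265, 0.003, 0.0189 and 0.0438, edgeR). In controls the diet comparison called 1 gene of each list, Fga at -0.65 and Apom at -0.89, both lower (adjusted p = 0.0224 and 0.0238, edgeR). Of all genes tested, 1.83% were called there in either direction. Between genotypes 0 genes of either list passed on either diet, where 0.0139% of all genes were called on chow and 0.111% on the high-fat diet.

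**Figure D4:**
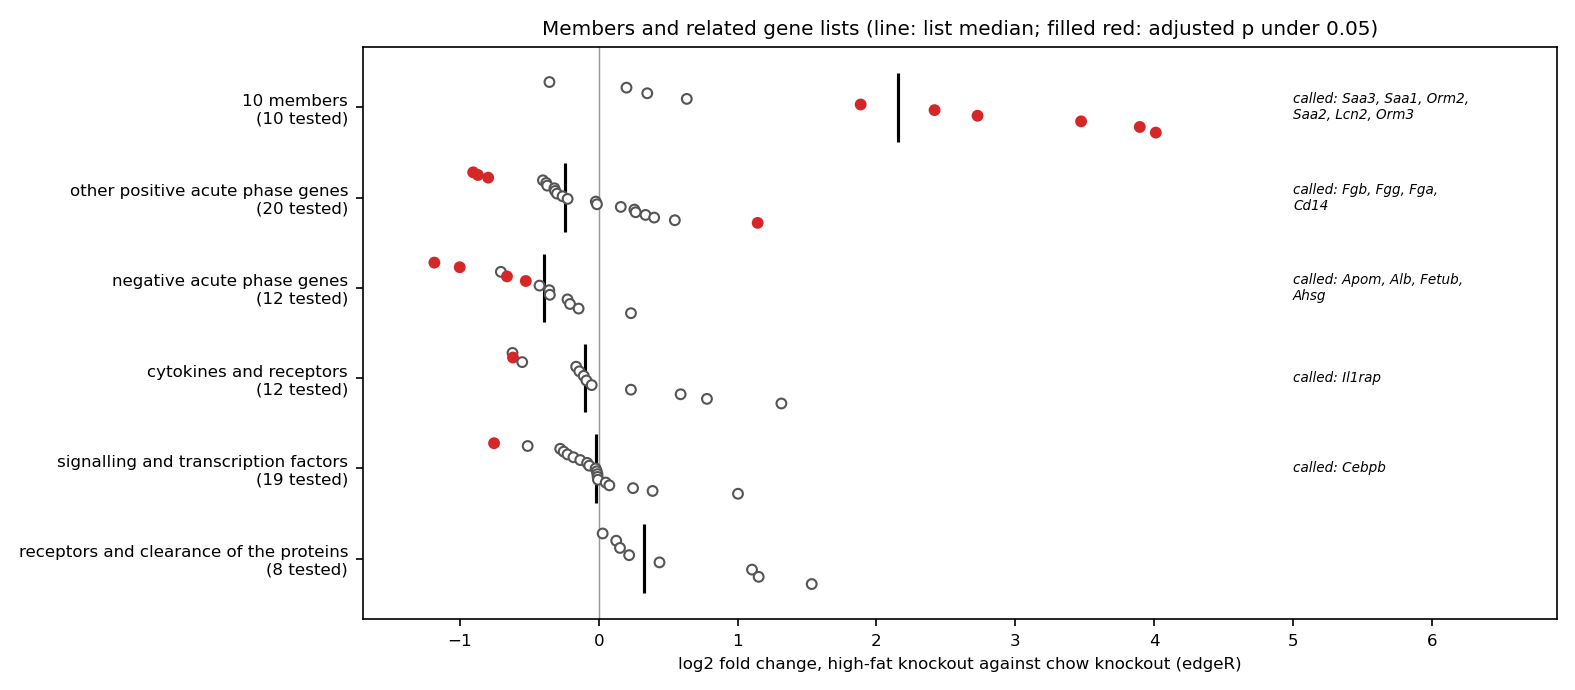
Log2 fold changes between high-fat knockouts and chow knockouts (edgeR) for the 10 members and for 5 lists of related genes, with a point for each gene tested, a black line for the list median and filled red points for an adjusted p under 0.05. The members' median is 2.15, whereas the medians of the other positive and of the negative acute phase genes are -0.24 and -0.39.

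The cytokine, receptor and signalling lists held 2 called genes between diets in knockouts. Of 17 cytokine and receptor genes, 12 were tested, and between diets in knockouts 1 fell and none rose, beside 10.6% of all genes called in either direction: Il1rap, the accessory chain of the interleukin 1 receptor, fell by 0.62 (adjusted p = 0.0316, edgeR). Il1rn, the interleukin 1 receptor antagonist, was at 1.32 (adjusted p = 0.059) and Osmr, a receptor chain for oncostatin M, at 0.59 (adjusted p = 0.0813, edgeR). Il6 did not exceed 0.138 CPM in any liver and had 0 counts in all 4 high-fat knockouts. Tnf was at 0.152 ± 0.158 CPM (SD, n = 4) in chow knockouts and 0.669 ± 0.307 CPM in high-fat knockouts, below the filter. Of 19 signalling and transcription factor genes 1 fell and none rose, close to the 5.35% of all genes tested that were called lower. Cebpb, which encodes C/EBP beta, fell by 0.75 (adjusted p = 0.0477, edgeR). Nfkbiz, an NF-kB cofactor, was at 1.003 (adjusted p = 0.0587, edgeR). None of 8 genes for receptors and clearance of these proteins passed. Tlr2, a receptor reported to bind serum amyloid A, was at 1.15 (adjusted p = 0.051), and Slc22a17, a lipocalin 2 receptor, was at 1.53 (adjusted p = 0.0734, edgeR).

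Hepatocyte markers were abundant in every liver, at a summed 72359 CPM or more over 8 genes. The sum was 128777 to 154400 CPM in chow knockouts and 72359 to 90518 CPM in high-fat knockouts. Most of it was Alb, with means of 98426 and 49193 CPM in these groups. Alb and Ttr are also in the list of negative acute phase genes above. Between these groups 3 of the 8 genes fell, Alb, Serpina1a and Tat, beside 5.35% of all genes tested called lower. The median over the list was -0.47. Of 12 neutrophil markers 3 were tested and 1 rose, Csf3r at 1.38 (adjusted p = 0.0288, edgeR), where 5.21% of all genes tested were called higher. The summed level of the 12 neutrophil markers was 1.91 to 4.68 CPM in chow knockouts and 4.78 to 12.1 CPM in high-fat knockouts, highest in high-fat knockout 1. S100a8 was at 0.176 ± 0.112 CPM in chow knockouts and 1.08 ± 0.877 CPM in high-fat knockouts (SD, n = 4 each). S100a9 was at 1.03 ± 0.782 and 1.32 ± 0.971 CPM in the same groups. The granule genes Ltf, Camp and Ngp did not exceed 0.572 CPM in any liver, and Ly6g had 0 counts in every liver of 3 groups and in 3 of 4 high-fat knockouts. Lcn2, itself a neutrophil granule gene, reached 74.3 CPM, and which cells held it was not tested.

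Of 10 macrophage markers 1 rose, Cd68 at 0.82 (adjusted p = 0.0497, edgeR), where 5.21% of all genes tested were called higher. The summed level of these markers overlapped, at 337 to 549 CPM in chow knockouts and 363 to 680.0 CPM in high-fat knockouts. Of 8 adipocyte markers 4 were tested and 2 rose between diets in knockouts, beside the same 5.21% over all genes. These were Cidec at 4.17 (adjusted p = 0.00893) and Cfd at 4.29 (adjusted p = 0.0201, edgeR). The summed level of the 8 adipocyte markers was 12.5 to 21.9 CPM in chow knockouts and 27.5 to 80.5 CPM in high-fat knockouts. High-fat knockout 1 had the highest sum, with 50.7 CPM of Cidec and 0 counts of Adipoq. In each of high-fat knockouts 1 to 3 the markers Adipoq, Plin1 and Lep had at most 2 counts. High-fat knockout 4 had 99 counts of Adipoq, at 6.59 CPM, and was the lowest of its group for 9 of the 10 members, all but Saa4. No cholangiocyte marker of 6 passed. The part of the marker levels in the members' differences was not tested beyond this.

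With the log2 share of these sense-intronic and unconfirmed transcripts added as a covariate, the same 6 members were called between diets in knockouts, and Hpx as well, at 1.03 (adjusted p = 0.0183, edgeR). The log2 fold changes of the 6 were then 2.90 for Saa1, 4.31 for Saa2, 2.40 for Saa3, 3.21 for Orm2, 4.07 for Orm3 and 3.31 for Lcn2. The share did not overlap between these groups, at 0.0463% to 0.0878% in chow knockouts and 0.162% to 0.191% in high-fat knockouts. This fit therefore cannot separate the share from diet in the knockouts.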

How the data were processed

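Libraries were made from total liver RNA with a stranded, rRNA-depleted Illumina kit, per the labels' protocols. Raw counts per Ensembl gene were deposited, whole numbers not normalized by the authors. Per the submitters' processing notes the authors used build GRCm38 with STAR 2.5.4a, featureCounts 1.5.1 and DESeq2. The sources used here do not give the strand setting or the treatment of multiply mapped reads, which matters for the Saa and Orm paralogs. All 16 columns matched a label, and no 2 livers of a group agreed within sampling noise (chi-square per degree of freedom at least 13.4 over 24 pairs).

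The members and gene lists were chosen with earlier results of these data known. Genes were filtered with filterByExpr (minimum count 10), scaled by TMM and fitted with edgeR 4.0.16 in R 4.3.3, with a term for each of 4 groups over 16 livers. Quasi-likelihood F tests were adjusted by Benjamini-Hochberg over 14351 genes, with a threshold of 0.05. SE was obtained by dividing the size of a log2 fold change by the square root of its F. The rule for named genes took all members in each comparison, up to 4 genes with the smallest p per list, and the nearest genes by Pearson's r at a mean log2 CPM of at least 2. Some cytokine and marker genes were also named for their levels alone, outside this rule. Positions, symbols and lengths came from GENCODE M21, promoter sequences from RefSeq. Protein sequences were not used here, so paralogs were compared by transcript. The fit was tested on simulated counts. Alternatives were DESeq2 1.42.0, limma-voom (limma 3.58.1), other scaling, no filter, fewer samples, a covariate, summed paralogs and each library left out.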

Additional observations from a re-analysis of the deposited data

How the results depend on the processing

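No paired analysis was possible because every liver has its own animal number and the groups share none. The 6 members called between diets in knockouts were 5 to 7 with each library left out and 6 or 7 under the other fits that keep paralogs apart. For the 4 comparisons and the interaction, in the order of genotype on chow, genotype on high fat, diet in controls and diet in knockouts, edgeR called 2, 16, 262, 1516 and 0 genes. Leaving out 1 library gave 0 to 4, 3 to 31, 100 to 955, 465 to 2914 and 0 to 1, with 0 to 1 members called for diet in controls; 955 and 2914 came without high-fat control 3, and 465 without high-fat knockout 2. DESeq2 called 43, 579 and 723 genes in the first 3 and 71 in the interaction, with 1 member each in genotype on high fat, diet in controls and the interaction. limma-voom called 31 genes for genotype on high fat and 1 member for diet in controls, and upper-quartile factors called 34 genes (27 higher, 7 lower, beside 9 and 7) for genotype on the high-fat diet. Without a filter, edgeR called 308, 964, 992 and, for the interaction, 259 genes, with 4, 4, 4 and 6 members; the cause was not tested. Only the groups compared gave 1, 1, 75 and 2793 genes. Without high-fat control 3 and chow knockout 1, diet in controls gave 1219 genes and 3 members (Orm1, Orm3 and Lcn2), and diet in knockouts 3273 genes. The covariate gave 0, 0, 1157 and 873 genes, and 1 member for diet in controls, Saa2 at 1.92.

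For genotype on the high-fat diet, Hp was 0.033 with upper-quartile factors, 0.057 without the 2 libraries and 0.20 with the covariate; Hpx was 0.023 with limma-voom, 0.30 without the 2 libraries and 0.65 with the covariate; Orm1 was 0.038 with the covariate. For diet in controls, Hp was 0.0056 with limma-voom, and with the covariate Saa3 was 0.23, Orm2 0.25, Hp 0.14 and Hpx 0.24. For diet in knockouts, Orm1 was 0.0080 with the covariate. The Orm sum, set by Orm1, was -0.27 for genotype on high fat, -0.52 for diet in controls and -0.23 for diet in knockouts. With each library left out, genotype on the high-fat diet ran from -0.25 to 0.75 for Saa1, -0.45 to 0.022 for Orm3, -0.15 to 0.056 for Hp and -0.22 to 0.30 for Hpx. Diet in controls ran from -0.40 to 0.22 for Saa3, -0.063 to 0.37 for Saa4, -0.29 to 0.41 for Orm2, -0.21 to 0.27 for Hp and -0.52 to 0.14 for Hpx. Diet in knockouts ran from -0.0046 to 0.45 for Saa4, and the interaction from -0.15 to 0.32 for Saa4 and -0.035 to 0.40 for Orm1. Depth limits Orm3 most, with 0 to 7 counts per chow knockout.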
